A study of Marchantia polymorpha and Klebsormidium nitens with 56 samples.

Results

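Gemmalings of the liverwort Marchantia polymorpha that carry a knockout of HSFA1Y (the hsfa1y line, in a male background) were compared with gemmalings of the male wild-type accession Tak-1, both grown at 22 °C and titled as controls. The treatment text is the same for all samples and names 37 °C with several durations, 0 h included, so that these libraries had no heat is taken from their titles. The comparison rests on 4 of the 56 samples of the series, 2 hsfa1y libraries and 2 Tak-1 libraries of RNA-seq read counts from total RNA of whole gemmalings, chosen by their genotype and temperature labels and not by any measured value. Plants were 7 days old and had been grown in diluted Gamborg B5 liquid medium under continuous light. For reference, the same count table holds hsfa1y and Tak-1 gemmalings heated to 37 °C (2 libraries each), the female hsfa1x line and the female wild type BC3 without heat (2 libraries each), BC3 with heat (2 libraries) and an HSFA1Y overexpression line in BC3 without heat (2 libraries). The rest of that table serves for levels of single genes (2 libraries each). It holds the hsfb1 knockout in Tak-1 with and without heat and the heated hsfa1x line. It also holds, without heat, HSFA1X overexpression in Tak-1 and in BC3 and HSFA1Y overexpression in Tak-1. The labels give neither the hours of heat for these samples nor the number of independent lines, so each genotype may be 1 clone, and the genotype field of the hsfa1x line disagrees with its sample name on whether it is a knockout; it is called the hsfa1x line here. The design text calls the replicates biological. The p-values measure spread between replicate libraries, estimated for each gene over all 28 libraries of the count table and not these 4 alone.

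Heat shock factors of class A1 are transcription factors that bind heat shock elements and switch on chaperone genes when proteins unfold. In Arabidopsis, the A1 factors act as the master regulators of the heat response, are held inactive at normal temperature by chaperones such as HSP90 and HSP70, and also keep basal growth and stress gene expression in order. Marchantia polymorpha is haploid through most of its life, has separate male (V chromosome) and female (U chromosome) plants and has few heat shock factor genes.

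The hsfa1y libraries held 20471263 and 23560680 counted reads and the Tak-1 libraries 19745004 and 20507823, within the range of 17728437 to 23996844 over the 28 libraries of the table. Levels are given as CPM, the counts scaled to a common library size, and they compare a gene between samples, not one gene with another. The 2 hsfa1y libraries differed from each other more than the 2 Tak-1 libraries did, with a chi-square per degree of freedom of 9.19 in hsfa1y and 2.60 in Tak-1. V-linked genes took 0.217% and 0.207% of the reads in hsfa1y and 0.246% and 0.221% in Tak-1, while the unheated BC3 libraries had 0.0604% and 0.0563%, so both compared groups carried V-linked transcripts at the male level. The identifier of HSFA1Y itself is not paired with its name in the sources used here, and the knockout was therefore not checked at the level of its own transcript.

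Without heat, hsfa1y gemmalings carried more RNA than Tak-1 for 10 of 24 pathogenesis-related genes, 14 of 60 phenylpropanoid and flavonoid genes and 6 of 16 lipoxygenase and jasmonate genes. They carried less of the chaperone MpHSP90-1, of the glutathione transferase MpGST26 and of 11 of 65 other cell wall enzymes. Of 13432 genes tested, 653 (4.86%) rose and 423 (3.15%) fell in hsfa1y at an adjusted p below 0.05, together 8.01% of all genes tested. Most changes were small, with a median log2 fold change of 0.51 among the genes that rose and -0.45 among those that fell. At least a 2-fold change was seen for 142 genes that rose and 48 that fell, and at least a 4-fold change for 36 and 14. Relative abundance in whole gemmalings cannot tell fewer cells of a type from less RNA per cell. The counts depended on single libraries: 250 genes rose and 151 fell without hsfa1y replicate 1, 259 and 204 without Tak-1 replicate 1, 304 and 192 without Tak-1 replicate 2, and 621 and 346 without hsfa1y replicate 2.

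**Figure D1:**
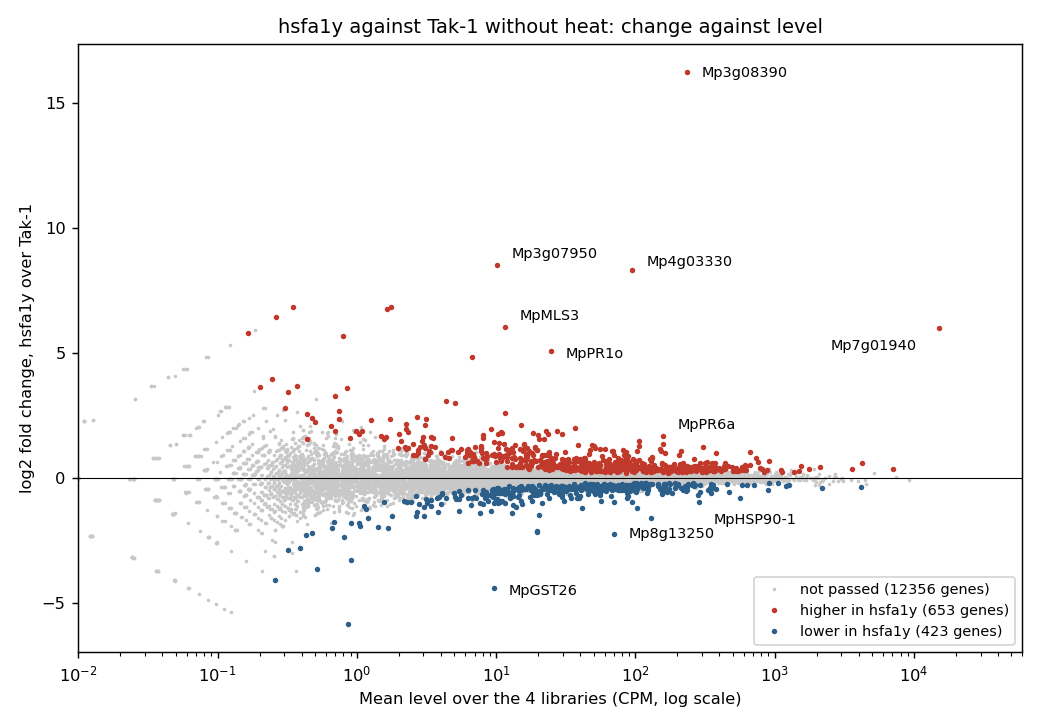
Each point is 1 of the 13432 genes tested, with its mean level over the 4 unheated libraries (CPM, log scale) on the x axis and the log2 fold change of hsfa1y over Tak-1 on the y axis; the 653 genes that rose are red and the 423 that fell are blue. A few genes lie far above the rest, among them Mp7g01940 at the highest level, and MpGST26 lies lowest among the labelled genes; the fitted fold of Mp3g08390, which had 0 reads in both Tak-1 libraries, is not a measured size.

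In the HSP90 chaperone family, 1 of 5 genes tested fell in hsfa1y and none rose. MpHSP90-1, whose family folds client proteins, had 183 and 205 CPM in hsfa1y and 376 and 379.7 CPM in Tak-1. It fell by 0.96 ± 0.06 (SE) on the log2 scale, with an adjusted p of 3.52e-10. The hsfa1y libraries thus sat at about 0.514 of the mean Tak-1 level, with no overlap. The other 4 HSP90 genes tested did not pass. MpHSP90-2 had 78.6 and 87.3 CPM in hsfa1y and 83.5 and 94.1 CPM in Tak-1, MpHSP90-3 had 231 and 262 CPM in hsfa1y against 272 and 271 CPM in Tak-1, and MpHSP90-4 had 173 and 186 CPM in hsfa1y against 174 and 185 CPM in Tak-1. The groups overlapped for MpHSP90-2 and MpHSP90-4, and MpHSP90-5 stayed at 1.11 and 1.90 CPM in hsfa1y and 2.10 and 1.60 CPM in Tak-1. MpHSF1, the 1 gene with a heat shock factor symbol that was tested, had 8.41 and 8.44 CPM in hsfa1y and 11.96 and 13.9 CPM in Tak-1. It fell by 0.62 ± 0.15 on the log2 scale (adjusted p 0.0118), a call that was lost without hsfa1y replicate 1 (adjusted p 0.104), hsfa1y replicate 2 (0.0738) or Tak-1 replicate 2 (0.166).

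Among the pathogenesis-related proteins, secreted proteins that plants make under attack, 10 of 24 genes tested rose and none fell, with a median log2 fold change of 1.17 over the list and of 0.00 over all genes tested; 14 rose and 2 fell at an unadjusted p below 0.05. MpPR1o, of the PR1 family of small secreted proteins, had 47.5 and 48.8 CPM in hsfa1y against 1.35 and 1.499 CPM in Tak-1, a log2 fold change of 5.07 ± 0.35 (adjusted p 9.21e-10). Its level in hsfa1y was 33.8-fold that in Tak-1. The 3 genes of the PR6 family, whose members in flowering plants inhibit proteases, rose together. MpPR6a had 255 and 228 CPM in hsfa1y and 71.5 and 80.3 CPM in Tak-1 (1.67 ± 0.08, adjusted p 1.34e-12). MpPR6b had 73.9 and 65.0 CPM in hsfa1y against 26.5 and 29.8 CPM in Tak-1 (1.30 ± 0.11, adjusted p 4.01e-08), and MpPR6c had 50.6 and 43.8 CPM in hsfa1y against 27.3 and 26.9 CPM in Tak-1 (0.80 ± 0.10, adjusted p 8.08e-06). In all 3, each hsfa1y library exceeded each Tak-1 library. Members of such families can share reads, and how the authors counted shared reads is not given in the sources used here, so the split between near-identical copies is uncertain. MpPR15b, of the germin-like PR15 family, had no read in either Tak-1 library and was at least 2.19-fold higher in hsfa1y, taking 3 reads per library as the floor. With this gene and the other 1 at 0 in a whole group set to such a bound, the list median was 1.01. Of the list, 5 genes rose without hsfa1y replicate 1, 5 without Tak-1 replicate 1, 6 without Tak-1 replicate 2 and 9 without hsfa1y replicate 2.

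Phenylpropanoid and flavonoid enzymes, which turn phenylalanine into phenolic shields against light and microbes, included 14 genes that rose and 3 that fell of 60 tested. Of all genes tested, 4.86% rose and 3.15% fell. MpPAL4 encodes a phenylalanine ammonia-lyase, the entry enzyme, and had 120.1 and 101 CPM in hsfa1y and 48.3 and 54.6 CPM in Tak-1 (1.10 ± 0.15, adjusted p 2.81e-05). MpC4H1, a cinnamate 4-hydroxylase of the next step, had 376 and 350.1 CPM in hsfa1y against 263 and 269.7 CPM in Tak-1 (0.45 ± 0.07, adjusted p 8.06e-05). These levels put PAL4 at 2.15-fold and C4H1 at 1.36-fold of Tak-1. Among polyketide synthases of the chalcone synthase type, MpPKS/CHS18 had 33.0 and 27.7 CPM in hsfa1y and 10.1 and 8.56 CPM in Tak-1 (1.71 ± 0.17, adjusted p 4.59e-07), and MpPKS/CHS16 had 532 and 472 CPM in hsfa1y against 238 and 261 CPM in Tak-1 (1.01 ± 0.11, adjusted p 1.46e-06). Mp4CL1 was among the 3 that fell. This 4-coumarate:CoA ligase activates hydroxycinnamic acids, and the gene had 7.95 and 9.14 CPM in hsfa1y and 19.2 and 19.1 CPM in Tak-1 and fell by 1.16 ± 0.11 on the log2 scale (adjusted p 2.4e-07). Of the list, 9 genes rose without hsfa1y replicate 1 and likewise 9 without Tak-1 replicate 1, and 1 fell without either of these or without Tak-1 replicate 2.

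Lipoxygenases, which oxygenate polyunsaturated fatty acids, and the other genes of the oxylipin and jasmonate route rose in 6 of 16 genes tested, and none fell. The shares over all genes tested were 4.86% and 3.15%. MpLOX5 had 33.4 and 27.1 CPM in hsfa1y and 10.6 and 10.1 CPM in Tak-1 (1.54 ± 0.19, adjusted p 8.44e-06). MpLOX1 had 97.4 and 90.5 CPM in hsfa1y against 42.3 and 47.4 CPM in Tak-1 (1.07 ± 0.15, adjusted p 3.15e-05), and MpCYP74N1, of the CYP74 family that works on lipoxygenase products, had 44.3 and 43.1 CPM in hsfa1y against 28.1 and 29.9 CPM in Tak-1 (0.59 ± 0.11, adjusted p 0.000635). The groups did not overlap for any of these 3 genes. Of the list, 3 genes rose without hsfa1y replicate 1 and likewise 3 without Tak-1 replicate 1. Class III peroxidases, secreted enzymes that cross-link wall phenolics and handle hydrogen peroxide, moved in a minority: 5 of 49 rose and none fell, with a list median of -0.03. MpPOD89 had 163 and 149 CPM in hsfa1y and 52.4 and 60.1 CPM in Tak-1 (1.47 ± 0.16, adjusted p 1.46e-06), and MpPOD49 had 241 and 211 CPM in hsfa1y against 88.9 and 87.6 CPM in Tak-1 (1.36 ± 0.15, adjusted p 1.65e-06). The mean in hsfa1y was 2.78-fold that in Tak-1 for MpPOD89 and 2.56-fold for MpPOD49, while 44 of the 49 genes did not pass. Without either Tak-1 replicate, 3 of the family rose.

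Other families with roles in plant defence are set beside 4.86% of all genes tested that rose and 3.15% that fell. MpNBS-LRR6, of the intracellular immune receptor family, had 13.2 and 11.4 CPM in hsfa1y and 4.75 and 2.85 CPM in Tak-1 (1.69 ± 0.28, adjusted p 0.000301), and it was 1 of 2 of 21 such receptors that rose; 1 rose without hsfa1y replicate 1 or either Tak-1 replicate. The polyphenol oxidase MpPPO4 had 232 and 201 CPM in hsfa1y against 102 and 114 CPM in Tak-1 (1.01 ± 0.12, adjusted p 3.02e-06), yet in its family of 28 only 1 rose and 1 fell. MpGH19.13 and MpGH19.9 both belong to the GH19 family of chitinases and moved in opposite directions. MpGH19.13 had 20.01 and 18.99 CPM in hsfa1y and 8.35 and 7.16 CPM in Tak-1 (1.33 ± 0.20, adjusted p 9.61e-05), whereas MpGH19.9 had 9.47 and 9.01 CPM in hsfa1y against 16.1 and 16.1 CPM in Tak-1 (-0.80 ± 0.18, adjusted p 0.00643). Over the GH18 and GH19 families, 3 of 19 rose and 2 fell; none fell without either hsfa1y replicate and 1 without either Tak-1 replicate. MpGH19.9 did not pass without hsfa1y replicate 1 (adjusted p 0.0521) or hsfa1y replicate 2 (0.0560). The beta-1,3-glucanase-family gene MpGH17.10 had 15.8 and 14.7 CPM in hsfa1y and 5.55 and 5.996 CPM in Tak-1 (1.40 ± 0.17, adjusted p 7.11e-06), and the dirigent gene MpDIR17 had 441 and 412 CPM in hsfa1y against 276 and 282 CPM in Tak-1 (0.61 ± 0.07, adjusted p 1.02e-06). Dirigent proteins, which steer phenoxy radical coupling, counted 5 that rose and 2 that fell of 37. Without hsfa1y replicate 1 or either Tak-1 replicate, 1 rose and none fell, and without hsfa1y replicate 2, 3 rose and 1 fell. Terpene synthases, of which 12 were tested, gave no call by edgeR at an adjusted p below 0.05, with 1 higher and 1 lower at an unadjusted p below 0.05 and none by DESeq2. The list as first planned also held the MLS symbols. As counted here it leaves out MpMLS3, which rose and is described below.

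**Figure D2:**
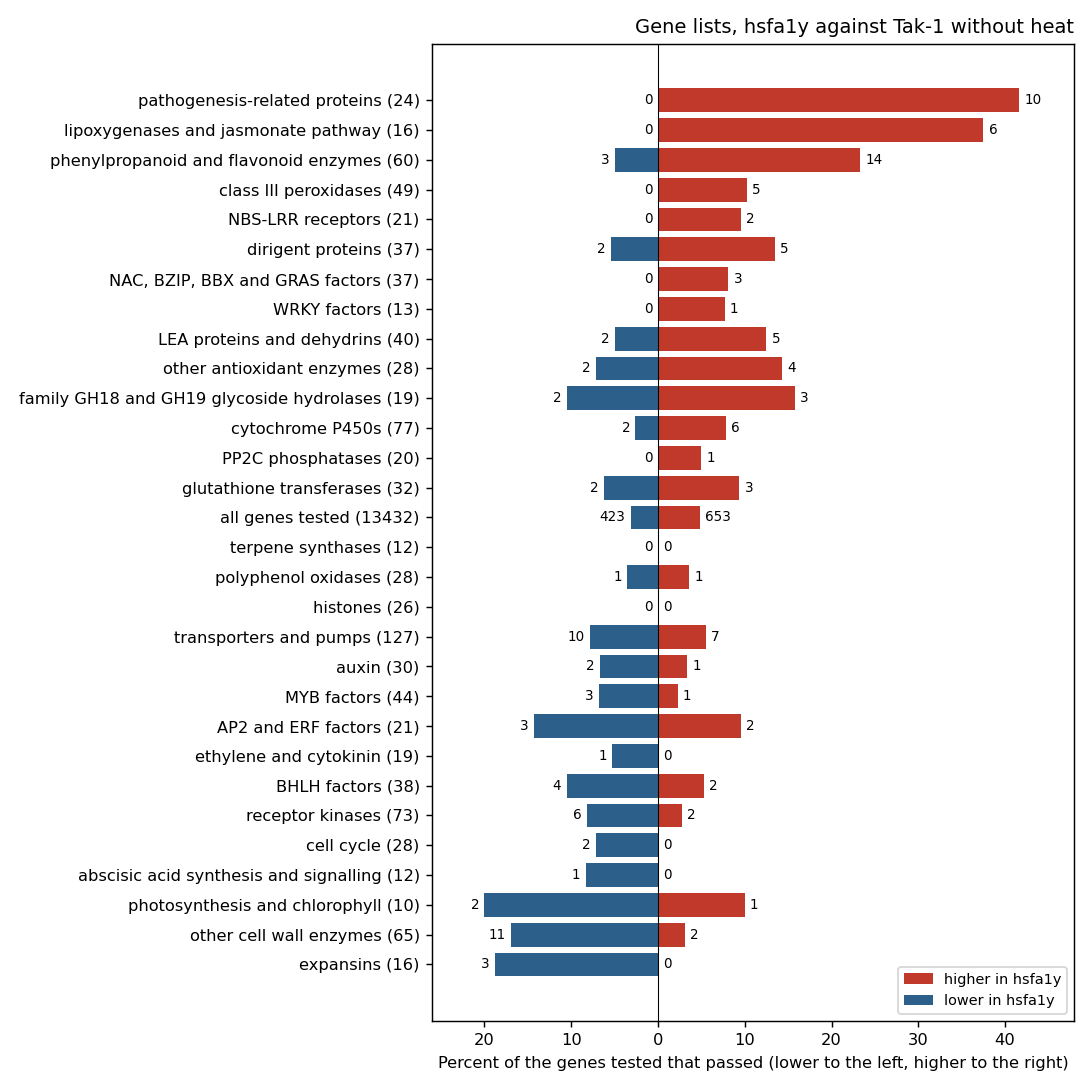
Bars give the percent of tested genes in each list of at least 10 tested genes that rose in hsfa1y (right, red) or fell (left, blue), with the number of genes printed at each bar end and the number tested in brackets; all genes tested are a row of their own. Pathogenesis-related proteins (10 of 24 higher) and the lipoxygenase and jasmonate list (6 of 16 higher) reach farthest to the right. Photosynthesis and chlorophyll genes (2 of 10 lower) and expansins (3 of 16 lower) reach farthest to the left.

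Redox enzymes changed one at a time, where 4.86% of all genes tested rose and 3.15% fell. MpGST26, a glutathione transferase of the family that attaches glutathione to reactive compounds, had 0.861 and 0.883 CPM in hsfa1y and 17.7 and 19.2 CPM in Tak-1. It fell by 4.39 ± 0.15 on the log2 scale (adjusted p 7.05e-16), which left the hsfa1y libraries 21.1-fold below Tak-1, the largest fall among the genes with a symbol that met the naming rule. Most other glutathione transferases did not share this fall: 3 of 32 tested rose and 2, MpGST26 included, fell. With any 1 of the 4 libraries left out 2 still fell, while 1 rose without hsfa1y replicate 1 or either Tak-1 replicate. MpDHAR1, a dehydroascorbate reductase that regenerates ascorbate, had 104 and 102 CPM in hsfa1y and 142 and 144 CPM in Tak-1 (-0.47 ± 0.07, adjusted p 0.000103). Among the 28 other antioxidant enzymes tested, 4 rose and 2 fell. None rose and 1 fell without hsfa1y replicate 1 or either Tak-1 replicate, 1 rose and 1 fell without hsfa1y replicate 2, and 2 rose without Mp7g01940, a gene described below.

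The next lists are set beside 4.86% of all genes tested that rose and 3.15% that fell. LEA proteins and dehydrins, which protect cells during drying, rose in 5 of 40 genes and fell in 2. With 1 library left out, 1 fell in each case, and 1 rose without hsfa1y replicate 1, 3 without hsfa1y replicate 2, 2 without Tak-1 replicate 1 and 1 without Tak-1 replicate 2. MpDHN3, a dehydrin, had 61.9 and 66.8 CPM in hsfa1y and 29.0 and 30.4 CPM in Tak-1 (1.12 ± 0.13, adjusted p 1.7e-06). MpPP2C_F3, a protein phosphatase of type 2C, had 108 and 109 CPM in hsfa1y against 55.1 and 59.0 CPM in Tak-1 (0.93 ± 0.08, adjusted p 7.27e-08), the 1 gene of 20 tested in that family that rose. The 12 tested genes of abscisic acid synthesis and signalling showed none higher and 1 lower. MpLDAP, a lipid-droplet-associated protein, had 54.8 and 55.3 CPM in hsfa1y and 69.4 and 66.3 CPM in Tak-1 (-0.30 ± 0.08, adjusted p 0.0257), and this call was lost when any 1 of the 4 libraries was left out (adjusted p 0.194 without hsfa1y replicate 1, 0.121 without hsfa1y replicate 2, 0.189 without Tak-1 replicate 1 and 0.0794 without Tak-1 replicate 2).

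Transcription factors changed in both directions, where 4.86% of all genes tested rose and 3.15% fell. MpBHLH3 and MpBHLH4 both rose: MpBHLH4 had 26.5 and 26.6 CPM in hsfa1y and 13.2 and 9.72 CPM in Tak-1 (1.21 ± 0.20, adjusted p 0.00021), and MpBHLH3 had 47.9 and 42.7 CPM in hsfa1y against 25.8 and 28.5 CPM in Tak-1 (0.74 ± 0.10, adjusted p 2.93e-05). They were the 2 of 38 genes of the BHLH family that rose, and 4 fell, or 2 without hsfa1y replicate 2 or Tak-1 replicate 1 and 1 without Tak-1 replicate 2. The WRKY family, whose members regulate defence genes in flowering plants, had 1 of 13 genes higher: MpWRKY8 had 52.4 and 54.9 CPM in hsfa1y and 30.7 and 31.8 CPM in Tak-1 (0.78 ± 0.13, adjusted p 0.000252). Within the AP2 and ERF factors, 2 of 21 rose and 3 fell. MpERF18 had 124 and 116 CPM in hsfa1y and 81.2 and 79.8 CPM in Tak-1 (0.57 ± 0.07, adjusted p 8.44e-06), and MpERF17 had 9.02 and 8.22 CPM in hsfa1y against 2.90 and 4.88 CPM in Tak-1 (1.14 ± 0.25, adjusted p 0.00487). MpERF7 had 16.8 and 18.4 CPM in hsfa1y against 32.6 and 28.2 CPM in Tak-1 (-0.79 ± 0.16, adjusted p 0.00264). The call on MpERF17 was lost without hsfa1y replicate 1 (adjusted p 0.0551) or Tak-1 replicate 1 (0.15), and that on MpERF7 without hsfa1y replicate 1 (0.0565) or Tak-1 replicate 1 (0.0633).

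Some hormone genes passed, where 8.01% of all genes tested did. MpYUC2, a flavin monooxygenase that makes auxin, had 4.81 and 5.39 CPM in hsfa1y and 8.05 and 9.38 CPM in Tak-1 (-0.77 ± 0.14, adjusted p 0.000608). MpSAUR2, of the auxin-responsive SAUR family, had 81.2 and 80.9 CPM in hsfa1y against 121 and 120.5 CPM in Tak-1 (-0.57 ± 0.09, adjusted p 8.3e-05). MpIAMT1, whose Arabidopsis counterpart methylates auxin, had 12.4 and 12.1 CPM in hsfa1y against 6.70 and 6.24 CPM in Tak-1 (0.92 ± 0.16, adjusted p 0.000429). These were the 3 of 30 auxin genes tested that passed. MpLOG, named for the enzymes that release active cytokinin, had 22.6 and 26.6 CPM in hsfa1y and 34.8 and 35.7 CPM in Tak-1 (-0.51 ± 0.09, adjusted p 0.00039).

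Of 65 other cell wall enzymes tested, 11 fell and 2 rose, where 3.15% of all genes tested fell and 4.86% rose. Of 16 expansins, proteins that loosen the wall, 3 fell and none rose, with a median log2 fold change of -0.35. MpExpansin32 had 10.7 and 14.0 CPM in hsfa1y and 24.6 and 23.3 CPM in Tak-1 (-0.95 ± 0.10, adjusted p 7.51e-07), and MpExpansin6 had 42.5 and 38.2 CPM in hsfa1y against 61.0 and 64.5 CPM in Tak-1 (-0.64 ± 0.11, adjusted p 0.000289). MpGH16.41, of the family that holds the xyloglucan-remodelling enzymes, had 4.66 and 5.43 CPM in hsfa1y against 11.01 and 9.33 CPM in Tak-1 (-1.005 ± 0.16, adjusted p 0.000162). All 3 were lower in each hsfa1y library than in each Tak-1 library. MpPL1.3, a pectate lyase family gene, had 18.4 and 25.4 CPM in hsfa1y and 37.8 and 36.2 CPM in Tak-1 (-0.75 ± 0.15, adjusted p 0.00266), a call lost without hsfa1y replicate 1 (adjusted p 0.111). MpGT47.9, a glycosyltransferase of family GT47, went the other way with 9.98 and 7.91 CPM in hsfa1y against 1.15 and 1.06 CPM in Tak-1 (3.01 ± 0.31, adjusted p 6.35e-07). Of the 65 other cell wall enzymes, 1 fell without hsfa1y replicate 1, 3 without Tak-1 replicate 1 and 3 without Tak-1 replicate 2.

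Of 127 transporters and pumps tested, 7 rose and 10 fell, where 4.86% of all genes tested rose and 3.15% fell. The balance turned on 1 library: 12 rose and 9 fell without hsfa1y replicate 2, against 2 and 4 without hsfa1y replicate 1, 4 and 5 without Tak-1 replicate 1, and 2 and 5 without Tak-1 replicate 2. MpHA4, a plasma membrane proton pump, had 436 and 376 CPM in hsfa1y and 717 and 713 CPM in Tak-1 (-0.82 ± 0.11, adjusted p 3.73e-05). The ABC transporter MpABCB3 had 41.4 and 36.4 CPM in hsfa1y against 74.1 and 72.4 CPM in Tak-1 (-0.91 ± 0.12, adjusted p 8.53e-06), and the aquaporin-family gene MpXIP had 6.48 and 7.29 CPM in hsfa1y against 13.2 and 14.4 CPM in Tak-1 (-0.998 ± 0.20, adjusted p 0.00245). MpXIP was not called without hsfa1y replicate 1 (adjusted p 0.0551). MpABCG14 rose, with 38.4 and 25.9 CPM in hsfa1y and 14.7 and 16.3 CPM in Tak-1 (1.05 ± 0.18, adjusted p 0.000406). Of the 77 cytochrome P450 genes tested, 6 rose and 2 fell (2 and 1 without hsfa1y replicate 1, and 1 fell without any other 1 of the 4 libraries), among them MpCYP704L1, with 17.9 and 18.2 CPM in hsfa1y and 8.30 and 7.69 CPM in Tak-1 (1.17 ± 0.14, adjusted p 6.04e-06), and MpCYP829D1, with 2.58 and 1.68 CPM in hsfa1y against 5.70 and 5.37 CPM in Tak-1 (-1.39 ± 0.25, adjusted p 0.000852).

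Calls among genes of chromatin and division are set beside 4.86% of all genes tested that rose and 3.15% that fell. None of the 26 histone genes tested passed edgeR's adjusted threshold, although 6 were lower and none higher at an unadjusted p below 0.05, 1 was lower by DESeq2, 9 were lower with no filter on low counts, and the list median was -0.23. In the cell cycle list of 28 genes, 2 fell and none rose, with a median of -0.18; none fell without hsfa1y replicate 1 or Tak-1 replicate 2, 1 without Tak-1 replicate 1 and 4 without hsfa1y replicate 2. Photosynthesis and chlorophyll genes had 1 of 10 higher and 2 lower, with none higher without hsfa1y replicate 1 or either Tak-1 replicate, and none lower without hsfa1y replicate 2 or Tak-1 replicate 2. Receptor kinases had 2 of 73 higher and 6 lower, against 0 and 1 without hsfa1y replicate 1, 1 and 3 without Tak-1 replicate 1, and 0 and 2 without Tak-1 replicate 2. One of them, MpRLK-Pelle_CR4L4, had 6.84 and 7.24 CPM in hsfa1y and 11.8 and 12.4 CPM in Tak-1 (-0.78 ± 0.22, adjusted p 0.0274), and the call was lost without any 1 of the 4 libraries (adjusted p 0.194 without hsfa1y replicate 1, 0.0909 without hsfa1y replicate 2, 0.109 without Tak-1 replicate 1 and 0.162 without Tak-1 replicate 2). The cupin gene MpCupin83 had 45.3 and 54.9 CPM in hsfa1y against 83.0 and 83.7 CPM in Tak-1 (-0.73 ± 0.22, adjusted p 0.0402), a call equally lost without any 1 of them (0.359, 0.0655, 0.166 and 0.177 in the same order) and by DESeq2 (adjusted p 0.142).

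**Figure D3:**
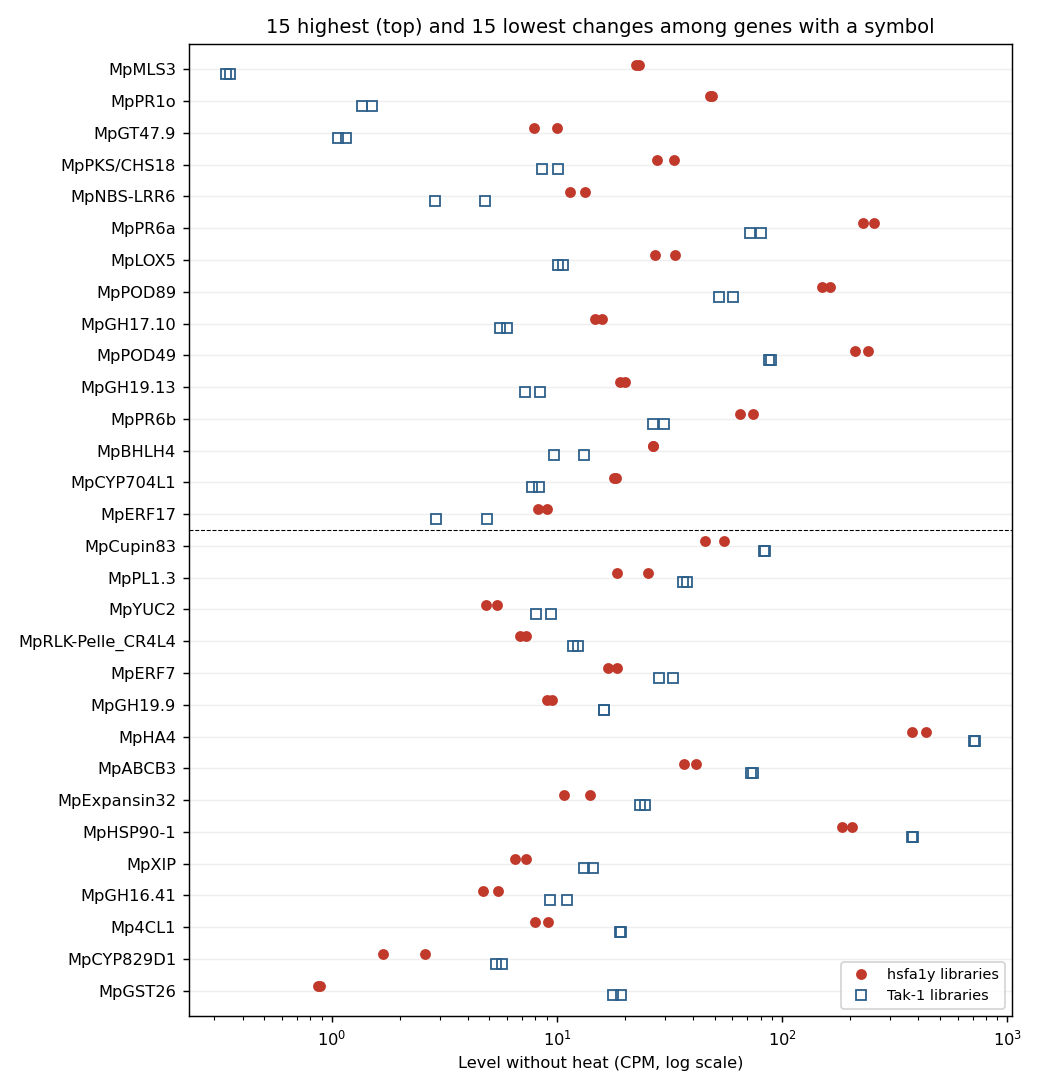
Level of each named gene without heat in CPM on a log axis, with the 2 hsfa1y libraries as filled red circles and the 2 Tak-1 libraries as open blue squares, for the 15 genes with the highest changes (above the dashed line) and the 15 with the lowest. The hsfa1y and Tak-1 libraries do not overlap for any of the 30 genes, a condition of the naming rule, and MpMLS3, MpPR1o and MpGST26 show the widest gaps.

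A few genes with no role given here stood out by the size of their difference. MpMLS3 had 22.3 and 23.2 CPM in hsfa1y and 0.350 and 0.338 CPM in Tak-1 (6.02 ± 0.42, adjusted p 9.21e-10). The unnamed gene Mp3g08390 had 494 and 445 CPM in hsfa1y and no read in either Tak-1 library, at least 3130.0-fold higher at a floor of 3 reads per library. It reached 323 to 494 CPM in the 4 hsfa1y libraries with and without heat and at most 1.40 CPM in the 24 other libraries. Mp3g07950 had 22.0 and 18.3 CPM in hsfa1y against 0.05003 and 0.0484 CPM in Tak-1. Mp4g03330, singled out after its values were seen, had 189.6 and 189.7 CPM in hsfa1y against 0.400 and 0.774 CPM in Tak-1 and at most 1.60 CPM in the 24 libraries that are not hsfa1y. These 3 genes were thus high in hsfa1y and near 0 in every other line of the table, the hsfa1x line and the overexpression lines included.

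Mp7g01940, also singled out after its values were seen, was by level the largest single difference. It had 31181 and 28579.9 CPM in hsfa1y and 466 and 484 CPM in Tak-1 (5.97 ± 0.09, adjusted p 3.83e-23), which is 3.01% and 2.75% of all reads in hsfa1y and 0.0472% and 0.0488% in Tak-1. It was not particular to hsfa1y in direction: the 8 wild-type libraries lay between 426 and 533 CPM, and the 16 libraries of the other engineered lines between 4029 and 12096 CPM. All engineered lines, overexpression lines included, thus exceeded all wild-type libraries, and hsfa1y was highest. With this gene left out before scaling, 611 genes rose and 437 fell.

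The V-linked gene MpVg00470, picked after its values were seen, had 23.4 and 26.9 CPM in hsfa1y and 43.1 and 44.9 CPM in Tak-1 (-0.80 ± 0.09, adjusted p 5.13e-06). It had no read in BC3 or the hsfa1x line and 361.3 and 362.6 CPM in the HSFA1Y overexpression line in BC3. Of 46 V-linked genes tested, 3 rose and 2 fell in hsfa1y, and the share of genes called ran from 7.36% to 8.75% over the 8 autosomes.

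**Figure D4:**
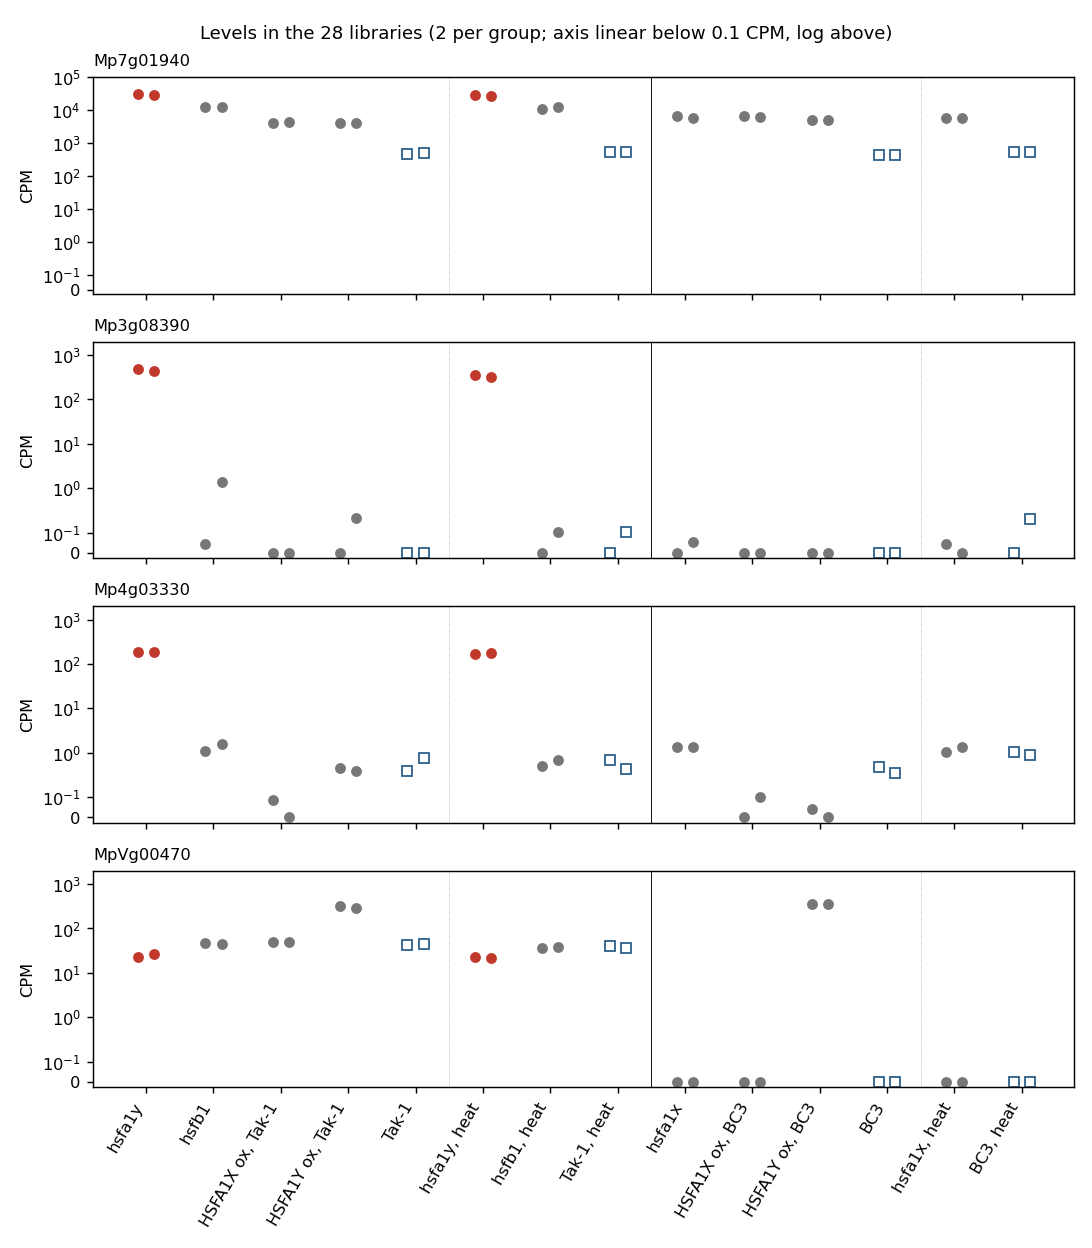
Level of 4 genes in CPM in each of the 28 libraries, 2 points per group, with hsfa1y in red, other engineered lines in grey and wild types as open blue squares; the axis is linear below 0.1 CPM and logarithmic above, male groups are left of the black line and female groups right of it. Mp7g01940 is higher in every engineered line than in the wild types, Mp3g08390 and Mp4g03330 are high in hsfa1y alone, and MpVg00470 is at 0 in the female groups except the HSFA1Y overexpression line.

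The same genotypes after heating to 37 °C share no library with the unheated ones and show which differences were also seen in heat. Of the 653 genes that rose without heat, 430 (65.8%) were also higher in heated hsfa1y than in heated Tak-1, 22 were lower and 201 did not pass, where 15.4% of all genes tested were higher. Of the 423 that fell, 270 (63.8%) were also lower in heat, 43 were higher and 110 did not pass, where 13.2% of all genes were lower. All 15 of the highest named genes remained higher, 10 of the 15 lowest remained lower, and 3 of these turned higher. Without hsfa1y replicate 1 or either Tak-1 replicate among the unheated libraries, fewer genes were called without heat. Of those called, a larger share kept its direction in heat. Without unheated hsfa1y replicate 2 that share was smaller.

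More genes of the whole table were called in heat, where 15.4% were higher in hsfa1y, against 4.86% without heat, and the counts of the lists stand beside that. Of the 24 pathogenesis-related genes, 18 were higher and 2 lower in heated hsfa1y, with a median log2 difference of 2.33, or 1.91 with the 3 genes at 0 in a whole group set to their bound. MpPR1o had 62.7 and 69.8 CPM in heated hsfa1y and 1.74 and 1.75 CPM in heated Tak-1, a log2 difference of 5.24 ± 0.35 beside 5.07 without heat. The difference between the temperatures, tested as an interaction, was 0.17 ± 0.57 (adjusted p 0.888). Phenylpropanoid enzymes had 31 of 60 higher and 7 lower, and lipoxygenase and jasmonate genes 8 of 16 higher and none lower. MpPAL4 had 197 and 158 CPM in heated hsfa1y against 34.3 and 35.6 CPM in heated Tak-1 (2.34 ± 0.16), and its interaction of 1.24 ± 0.22 passed (adjusted p 0.000175).

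For several genes that fell or did not pass without heat, the gap below Tak-1 was larger in heat. MpHSP90-1 had 399 and 370.5 CPM in heated hsfa1y and 5491 and 5476 CPM in heated Tak-1, a log2 difference of -3.83 ± 0.07 and an interaction of -2.87 ± 0.09 (adjusted p 3.01e-17). The heated hsfa1y libraries were close to the level of unheated Tak-1. MpHSP90-4, with a log2 difference of 0.00 without heat, had 197 and 196 CPM in heated hsfa1y and 1981 and 2002 CPM in heated Tak-1, an interaction of -3.34 ± 0.11 (adjusted p 7.1e-17). MpGST26 had 1.26 and 1.38 CPM in heated hsfa1y against 85.0 and 87.9 CPM in heated Tak-1, and Mp4CL1 had 9.03 and 7.69 CPM in heated hsfa1y against 135 and 133 CPM in heated Tak-1. MpLDAP had 79.3 and 79.5 CPM in heated hsfa1y and 768 and 773 CPM in heated Tak-1, where its difference without heat was only -0.30. The 2 lowest genes without a symbol also had a larger gap in heat: Mp8g13250 had 23.5 and 24.8 CPM in unheated hsfa1y and 112 and 120.1 CPM in unheated Tak-1, then 36.1 and 30.1 CPM in heated hsfa1y and 4642 and 4639.6 CPM in heated Tak-1. Mp6g14520 had 5.42 and 8.79 CPM in unheated hsfa1y and 32.4 and 31.2 CPM in unheated Tak-1, then 8.37 and 8.62 CPM in heated hsfa1y and 763 and 819 CPM in heated Tak-1.

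A smaller set turned over between the temperatures. MpYUC2, lower in hsfa1y without heat, had 20.5 and 21.8 CPM in heated hsfa1y and 5.97 and 7.79 CPM in heated Tak-1, an interaction of 2.39 ± 0.19 (adjusted p 8.37e-10). MpPL1.3 had 77.1 and 97.8 CPM in heated hsfa1y against 34.9 and 32.9 CPM in heated Tak-1, and MpExpansin6 had 85.9 and 86.6 CPM in heated hsfa1y against 36.8 and 31.9 CPM in heated Tak-1. MpSAUR2, MpLOG and MpERF7 turned the same way, lower in hsfa1y without heat and higher in heat. MpERF18 did the reverse, with 62.1 and 65.1 CPM in heated hsfa1y and 95.1 and 103 CPM in heated Tak-1. Over all genes the interaction passed for 1945 (14.5%), 886 in the positive direction (6.6%) and 1059 in the negative (7.88%). Among the 653 genes that rose it passed for 70 and 57, and among the 423 that fell for 85 and 146. The unheated difference that chose these genes is subtracted in this test. Their counts are therefore shifted in advance, toward negative for genes that rose and toward positive for those that fell.

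In the female background, the hsfa1x line set against BC3 without heat shares no library with the male comparison. Of the 653 genes that rose in hsfa1y, 445 (68.1%) were also higher in hsfa1x than in BC3 and 11 were lower, where 11.3% of all genes were higher. Of the 423 that fell, 161 (38.1%) were also lower and 30 were higher, where 7.36% of all genes were lower. With hsfa1y replicate 1 or either Tak-1 replicate left out, fewer genes were called in hsfa1y. Of those that rose, a larger share was also higher in hsfa1x. Of those that fell, the share also lower was smaller without hsfa1y replicate 1 and slightly larger without either Tak-1 replicate. Pathogenesis-related genes had 11 of 24 higher and 1 lower in hsfa1x, with a median of 1.20. MpPR6a had 146 and 141 CPM in hsfa1x and 47.8 and 47.9 CPM in BC3, a log2 difference of 1.58 beside 1.67 in the male pair. Other cell wall enzymes had 22 of 65 lower and 3 higher, and expansins 7 of 16 lower and 1 higher.

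The falls of MpHSP90-1, MpGST26 and Mp4CL1 were not seen in the female line. MpHSP90-1 had 394 and 404 CPM in hsfa1x and 387 and 394 CPM in BC3, and the hsfa1y difference minus the hsfa1x difference was -0.99 (adjusted p 8.59e-08). MpGST26 had 21.6 and 18.9 CPM in hsfa1x against 20.9 and 25.2 CPM in BC3, a difference between the lines of -4.21 (adjusted p 2.28e-13), and Mp4CL1 had 20.6 and 17.2 CPM in hsfa1x against 17.7 and 15.9 CPM in BC3, a difference of -1.33 (adjusted p 5.27e-06). Mp8g13250 went in opposite directions, with 114 and 102 CPM in hsfa1x and 42.5 and 40.5 CPM in BC3 (adjusted p of the difference 2.67e-15). MpERF17 did too, with 0.308 and 0.319 CPM in hsfa1x and 4.81 and 3.65 CPM in BC3. Tested over all genes, the hsfa1y difference lay above the hsfa1x difference for 203 genes (1.51%) and below it for 400 (2.98%). It lay above for 55 and below for 83 of the genes that rose in hsfa1y, and above for 8 and below for 102 of those that fell. The hsfa1y difference that chose these genes is part of this contrast. Their counts are therefore shifted in advance, toward above for genes that rose and toward below for those that fell. Line, sex and the mutated gene differ together between the 2 pairs and cannot be told apart.

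Overexpression of HSFA1Y in BC3, a comparison added after the data were seen, uses the same BC3 libraries as the hsfa1x comparison and none of the male ones. Of the 653 genes that rose in hsfa1y, 310 (47.5%) were lower in the overexpression line than in BC3 and 43 were higher, where 10.9% of all genes were lower. Of the 423 that fell, 186 (44%) were higher and 36 lower, where 9.19% of all genes were higher. These counts were lower when any 1 library of the groups compared was left out. For the unheated male libraries, fewer genes were then called in hsfa1y as well. Pathogenesis-related genes had 9 of 24 lower and 1 higher, with a median of -1.12 (-1.004 with bounds), phenylpropanoid enzymes 16 of 60 lower and 6 higher, and lipoxygenase and jasmonate genes 5 of 16 lower and 1 higher. MpPOD49 averaged 14.8 ± 1.42 CPM in the overexpression line and 106 ± 4.95 CPM in BC3 (SD, n = 2 each), and MpBHLH4 averaged 0.940 ± 0.124 CPM in the overexpression line and 22.8 ± 2.56 CPM in BC3. MpHSP90-1 averaged 598 ± 10.5 CPM in the overexpression line and 390.3 ± 4.87 CPM in BC3, and Mp4CL1 averaged 62.3 ± 5.55 CPM in the overexpression line and 16.8 ± 1.25 CPM in BC3. For these 4 genes the overexpression line thus lay on the other side of its wild type from hsfa1y. Not all followed. Among the 15 highest named genes, 10 were lower and 2 higher in the overexpression line, but among the 15 lowest 6 were higher and 5 lower. MpERF7 and MpYUC2, which fell in hsfa1y, were also lower in the overexpression line. MpERF7 averaged 13.5 ± 1.55 CPM there and 35.6 ± 3.35 CPM in BC3, and MpYUC2 averaged 10.9 ± 0.0546 CPM there and 15.9 ± 0.433 CPM in BC3.

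**Figure D5:**
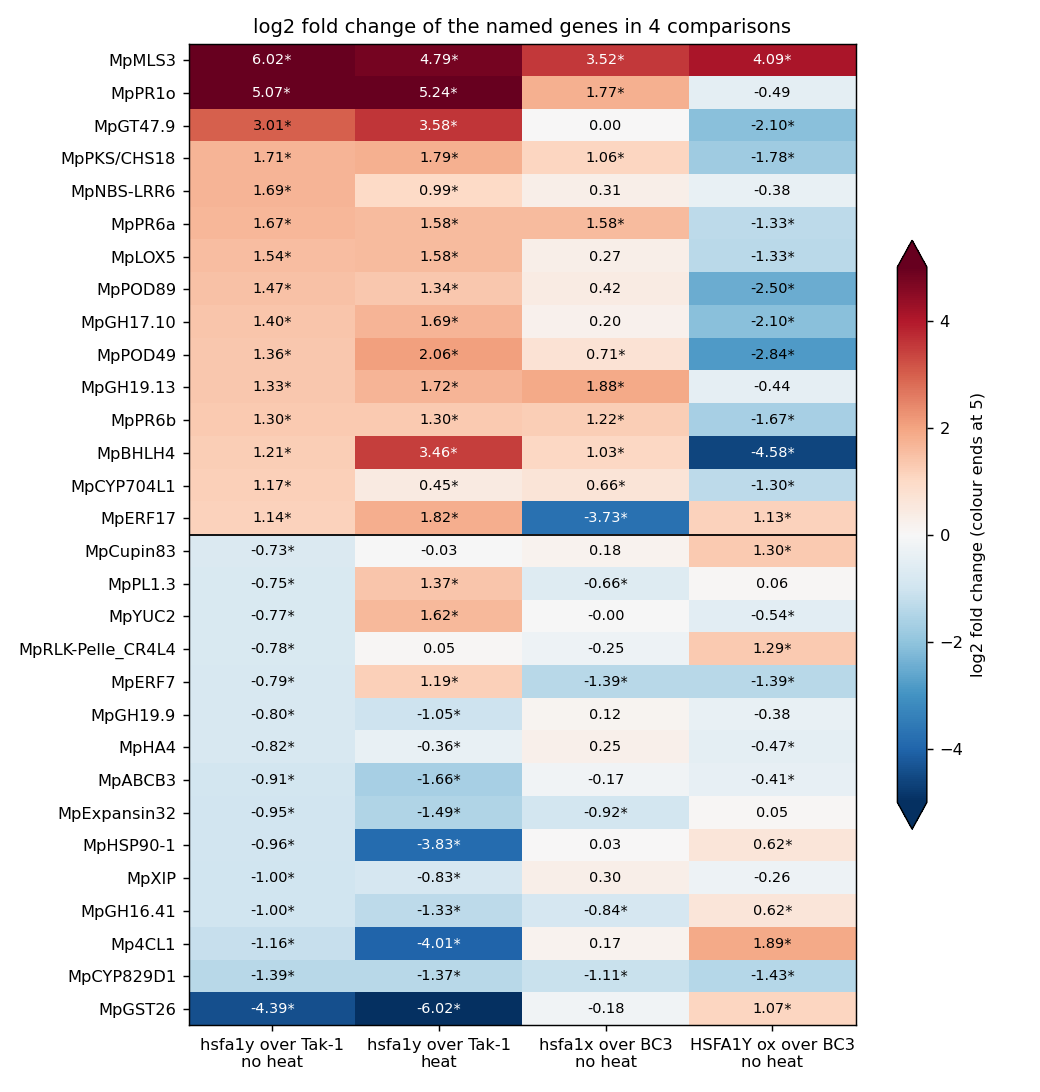
The log2 fold change of each of the 30 named genes (rows) in 4 comparisons (columns), coloured red for higher and blue for lower, with an asterisk where the adjusted p was below 0.05. The first 2 columns share no library, and the last 2 share the BC3 libraries. The 15 highest genes are all higher in the heated column, and in the HSFA1Y overexpression column 10 of them are lower and 2 higher. The 15 lowest genes show no such turn: in the overexpression column 6 are higher and 5 lower, and in the heated column 10 are lower and 3 higher.

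The heat response of wild-type BC3 again shares no male library. It uses the same unheated BC3 libraries as the hsfa1x and HSFA1Y overexpression comparisons, so these are not independent of one another. Heat in BC3 acted on the genes called in hsfa1y as follows. Of the 423 genes that fell in hsfa1y, 231 (54.6%) were raised by heat in BC3 and 100 lowered, where 23.9% of all genes were raised. Of the 653 that rose, 259 (39.7%) were lowered and 164 raised, where 24% of all genes were lowered. Fewer genes were called in hsfa1y without its replicate 1 or either Tak-1 replicate. Among those that fell, the share raised by heat in BC3 was then larger. Without hsfa1y replicate 2 that share was smaller. Among the genes that rose, the share lowered by heat moved little. The 231 genes had a median log2 difference between hsfa1y and Tak-1 of -1.17 with heat and -0.47 without heat, and 198 of them passed as lower in heat. The 100 genes that fell in hsfa1y and were lowered by heat in BC3 had a median of -0.02 in heat, with 27 lower and 25 higher. The named genes with the largest changes did not lean this way. Among the 15 highest, heat in BC3 raised 5 and lowered 2, and among the 15 lowest it raised 6 and lowered 8.

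Markers of tissues were compared for the 4 unheated libraries. The receptor kinase MpCLV1, a marker of the meristem at the apical notch, had 143 and 131 CPM in hsfa1y and 207 and 195 CPM in Tak-1 (-0.55 ± 0.08, adjusted p 0.000101), the 1 marker that passed. The other notch marker tested, MpCLE2, did not pass. The 5 tested markers of oil body cells summed to 33.0 and 37.4 CPM in hsfa1y and 47.4 and 45.2 CPM in Tak-1, with none called. The 4 genes listed for the gemma cup summed to 108 and 102 CPM in hsfa1y against 104 and 105 CPM in Tak-1. Most of each sum came from MpKAI2A and MpKAI2B. MpGCAM1 had only 1.52 and 0.928 CPM in hsfa1y against 1.30 and 1.02 CPM in Tak-1. The sums are therefore no measure of gemma cup content. Markers of the antheridium (2 of 4 tested) summed to 9.02 and 7.29 CPM in hsfa1y against 7.95 and 7.64 CPM in Tak-1, and those of the sporophyte (2 of 3) to 3.14 and 3.40 CPM in hsfa1y against 2.95 and 2.95 CPM in Tak-1. MpRKD, listed for the archegonium or egg, had 70.0 and 86.9 CPM in hsfa1y against 87.5 and 89.8 CPM in Tak-1. Both groups are male, so these levels do not mark eggs. The 2 tested markers of air pores and photosynthetic tissue summed to 476 and 582 CPM in hsfa1y against 495 and 520 CPM in Tak-1. Neither rhizoid marker was tested. The part of the lower MpCLV1 level and of the oil body marker sums in the differences described above was not tested.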

How the data were processed

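RNA was extracted from whole gemmalings with the RNeasy Plant Mini Kit, per the labels' protocols, and STAR is named in the submitters' processing notes; the sources used here give neither its version nor the counting program, genome build or strand setting. The authors deposited raw read counts per gene, not normalized. Without a stated strand setting, a gene and its antisense partner cannot be told apart. The table lists 20574 genes in 28 libraries (14 groups of 2), and 1 identifier occurring more than once was summed. Gene symbols came from the RefSeq table of assembly MpTak2_v7.1 by identifier (17641 identifiers matched, 3091 with a symbol, 2351 of these tested), and no coordinates or sequences were used. Precision rests on 17728437 to 23996844 reads per library, and the floor of 3 reads covers counting error only.

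Counts were fitted with edgeR 4.0.16 in R 4.3.3 (quasi-likelihood F test, TMM scaling, filterByExpr, 1 mean per group over all 28 libraries), with Benjamini-Hochberg adjusted p below 0.05 over the 13432 genes that passed the filter, which hold 99.98% of the reads. CPM are the counts after TMM scaling, and ± after a log2 fold change is its standard error. The test was checked on simulated counts for this comparison, with 200 of 13432 genes changed. All changed genes were recovered at 2-fold and at 4-fold (100% each), and 4.76% of calls in the simulation were false. All simulated libraries shared 1 spread at a given level, and the changed genes averaged at least 5 CPM. Changes below 2-fold and the wider spread between the hsfa1y libraries were not simulated. These rates therefore do not carry over to the calls above.

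Genes with a symbol were named as the 15 highest and 15 lowest log2 fold changes among those called, with at least 5 CPM in the higher group and no overlap between the groups; genes with no symbol as the 2 highest and 2 lowest; and, within each list, from the 2 highest and 2 lowest members at 5 CPM or more. MpPR6c, MpC4H1, MpPKS/CHS16, MpCYP74N1, MpSAUR2, MpHSP90-5, MpPR15b and MpCLV1 were named outside this rule, after their values were seen. The gene lists and members were chosen with earlier results of these data known, so lists are described by counts and medians with no test. Alternatives were DESeq2 1.42.0, RLE scaling, no filter, only the libraries of the groups compared, the replicate number as a block, each library left out in turn, and Mp7g01940 left out.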

Additional observations from a re-analysis of the deposited data

Results flagged for a closer look

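For 29 of the 63 genes looked at, the difference between hsfa1y and Tak-1 itself differed between heat and no heat in edgeR's interaction test at an adjusted p below 0.05. Values are the log2 difference with heat minus that without heat. Many of the 63 genes were chosen by the difference without heat, which is part of this test, so the number is no rate for genes at large. In the negative direction it was -4.87 for Mp8g13250, -4.39 for Mp6g14520, -3.34 for MpHSP90-4, -2.98 for MpLDAP, -2.87 for MpHSP90-1 and -2.85 for Mp4CL1. It was -1.63 for MpDHAR1, -1.63 for MpGST26, -1.35 for MpHSF1, -1.21 for MpERF18, -1.16 for MpHSP90-2, -0.74 for MpABCB3, -0.73 for MpCYP704L1, -0.59 for MpHSP90-3 and -0.55 for MpExpansin32. In the positive direction it was 0.35 for MpC4H1, 0.48 for MpCLV1, 0.49 for MpPKS/CHS16, 0.70 for MpPOD49, 0.90 for MpDHN3, 1.12 for MpIAMT1, 1.24 for MpPAL4 and 1.32 for MpLOG. The widest positive values were 1.97 for MpExpansin6, 1.98 for MpERF7, 2.09 for MpSAUR2, 2.12 for MpPL1.3, 2.24 for MpBHLH4 and 2.39 for MpYUC2. For 7 of the 29 genes, the difference passed at both temperatures with opposite signs.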

How the results depend on the processing

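With RLE scaling 687 genes rose and 400 fell, with DESeq2 712 and 431, with no filter 865 and 633, with only the libraries of the groups compared 924 and 504, and without Mp7g01940, an alternative chosen after seeing the data, 611 and 437. The replicate number as a block gave 676 and 446; same-numbered libraries of hsfa1y and Tak-1 deviated from their group means with a correlation of 0.03 across genes, so the number is treated as a name and not as a pairing. The deviations of the unheated hsfa1y libraries correlated with those of the other 12 groups from -0.152 (heated hsfb1) to 0.24 (unheated hsfa1x), with 0.18 for heated hsfa1y. Leaving out 1 library moved each count: genes higher 250 to 621, genes lower 151 to 346, higher at both temperatures 211 to 415, lower at both 115 to 279, interaction positive 647 to 1070 and negative 827 to 1110, also higher in hsfa1x 188 to 561, also lower in hsfa1x 54 to 178, higher in hsfa1y and lowered by heat in BC3 93 to 269, lower in hsfa1y and raised by heat in BC3 104 to 225, higher in hsfa1y and lower with HSFA1Y overexpression 137 to 299, and lower in hsfa1y and higher with it 86 to 169. With no filter, 289 genes were lower in both hsfa1y and hsfa1x, against 161 with the filter; more genes are tested there. Without heat, MpHSP90-4 had a log2 difference of 0.00 whose sign was negative with no filter (-0.0020) and without Mp7g01940 (-0.0029), and ranged from -0.046 to 0.056 with 1 library left out; MpHSP90-5 ranged from -0.71 to 0.039. Of 629 values of 63 named genes under alternatives, 600 kept their direction and side of the threshold, 24 lost the call, and the 5 that changed sign are those of these 2 genes.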
